A study of Mus musculus with 2 samples.

Results

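Metallothioneins and the genes that move zinc across membranes were followed in RNA from blood stem and progenitor cells labelled p53 KO or Utx/p53 DKO. The set held 9 of the 22020 gene symbols in the table: the metallothioneins Mt1 and Mt2, the metal-sensing transcription factor gene Mtf1, and 6 zinc transporter genes, Slc30a1, Slc30a5, Slc30a6, Slc39a1, Slc39a6 and Slc39a10. They were chosen by name after Mt1 and Mt2 had been seen to be higher in the DKO library, and the question was whether the zinc transporters followed. Their values between the 2 libraries are therefore a description. Each of the 9 had 1 transcript in the table, and all of them exceeded 1 RPKM (reads per length of transcript and per library size) in both libraries.

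The cells were LSK cells of 8-week-old C57BL/6 mice, a sorted fraction that lacks lineage markers, carries c-Kit and Sca-1 and holds the stem cells and earliest progenitors of the blood. There was 1 library of p53 KO cells, titled WT by the submitters although their genotype is given as p53 KO, and 1 library of Utx/p53 DKO cells. By the labels the loss of p53 is common to both, and they differ in Utx (Kdm6a), an X-linked gene for a histone demethylase. The sources used here do not say how the alleles were deleted, in which cells, or how many animals gave each library. With 1 library per genotype no difference has a replicate check, no p-value was computed, and intervals cover counting error only.

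Metallothioneins are small cysteine-rich proteins of the cytosol that bind zinc and copper ions. Free zinc activates MTF-1, the product of Mtf1, which binds metal response elements in the promoters of metallothionein genes and of Slc30a1. Proteins of the Slc30a family (ZnT) carry zinc out of the cytosol, either out of the cell or into organelles, and proteins of the Slc39a family (ZIP) carry it in. Metallothionein genes also respond to glucocorticoids, inflammatory cytokines and oxidative stress.

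Promoter stretches of Mt1, Mt2 and Slc30a1 are shown because metal response elements are the known route from zinc to these genes. The Mt1 stretch does not hold all matches near that gene, since 4 more lay downstream of its RefSeq start and are not printed. Each is the 250 bases before the start site in RefSeq (GRCm38.p6), 5′ to 3′ on the strand of the gene. Capitals mark matches to the core of the metal response element, searched as TGCACNC and TGCGCNC on both strands; no matches overlapped in these windows. The Mt1 window is chr8:94178839-94179088 (+ strand), the Mt2 window chr8:94172368-94172617 (+ strand) and the Slc30a1 window chr1:191906531-191906780 (+ strand).
Mt1: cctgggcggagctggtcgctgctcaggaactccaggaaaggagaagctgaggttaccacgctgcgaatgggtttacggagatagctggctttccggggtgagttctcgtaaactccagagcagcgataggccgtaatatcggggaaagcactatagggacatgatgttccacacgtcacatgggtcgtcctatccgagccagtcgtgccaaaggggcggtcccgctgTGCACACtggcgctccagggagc
Mt2: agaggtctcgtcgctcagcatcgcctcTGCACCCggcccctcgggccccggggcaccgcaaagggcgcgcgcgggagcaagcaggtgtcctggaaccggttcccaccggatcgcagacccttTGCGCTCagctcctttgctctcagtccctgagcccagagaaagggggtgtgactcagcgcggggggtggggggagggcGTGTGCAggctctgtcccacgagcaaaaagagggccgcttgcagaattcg
Slc30a1: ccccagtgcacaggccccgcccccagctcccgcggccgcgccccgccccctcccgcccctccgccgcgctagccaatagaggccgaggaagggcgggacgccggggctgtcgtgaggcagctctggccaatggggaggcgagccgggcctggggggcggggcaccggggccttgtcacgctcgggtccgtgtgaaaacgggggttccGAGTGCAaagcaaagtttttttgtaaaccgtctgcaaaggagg

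The Mt2 window held 3 matches, and those of Mt1 and Slc30a1 held 1 each. At least 1 match was present in 21.4% of all 32851 promoter windows of the same length and at least 3 in 1.26%. Of the other members with a window, Slc30a5 had 1 match, and Mtf1, Slc30a6, Slc39a1 and both windows of Slc39a10 had 0. RefSeq windows were found for 8 of the 9 members. GENCODE M21 places the starts of 3 Mt1 transcripts at -7, 122 and 152 bases from the RefSeq start (negative is upstream), and of 2 Mt2 transcripts at 46 and 242 bases. The 152 bases downstream of the RefSeq start of Mt1, not printed, held 4 more matches. Bases downstream of the RefSeq start of Mt2 were not searched. The window counts therefore depend on where RefSeq places the start and do not rank the promoters of Mt1 and Mt2. A match is a run of letters, and these data hold no binding measurement.

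Both metallothionein transcripts were more abundant in the DKO library, Mt1 by 15.5-fold and Mt2 by 16.1-fold, while 0 of the 6 zinc transporters in the set were 2-fold higher. On the log2(RPKM + 1) scale used for such calls, 6.60% of all measured genes were higher and 13.5% were lower by 2-fold or more. Slc39a6 and Slc39a10, which encode related zinc importers, were 2.5-fold and 3.42-fold lower in the DKO library. Mtf1, Slc30a1, Slc30a5, Slc30a6 and Slc39a1 differed by at most 1.203-fold (Slc30a5). Granulocyte and monocyte markers were also higher in the DKO library (17 of 22, described with the other marker lists). In bulk libraries more cells of a type cannot be told apart from more RNA per cell, nor fewer cells from less RNA per cell.

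Mt1, the main metallothionein gene of these cells by level, had 233 reads (25.2 RPKM) in p53 KO cells and 4200 reads (388.9 RPKM) in DKO cells. The RPKM ratio, DKO over p53 KO, was 15.5 (exact 95% interval 13.5 to 17.7). Mt1 stood in 2805th place by level in the p53 KO and in 140th in the DKO library among the 11356 measured genes, those whose 2 RPKM values average 1 or more.

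Mt2, its neighbour on chromosome 8, was at 1.89 RPKM in the p53 KO library, on 18 reads, and at 30.5 RPKM in the DKO library, on 338 reads. Its ratio was 16.1, with a wider exact 95% interval of 10 to 27.5 because of the 18 reads. On the scale used to call genes, the difference of log2(RPKM + 1), Mt1 was higher by 3.90 and Mt2 by 3.44, the 22nd and 39th largest increases of all measured genes. Together the pair took 0.00749% of the summed RPKM in p53 KO and 0.0896% in DKO cells.

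The ratio of Mt1 to Mt2 within a library does not depend on how the libraries are scaled. It was 13.3 in the p53 KO library (exact 95% interval 8.22 to 22.8) and 12.8 in the DKO library (11.4 to 14.3), so the intervals overlapped. The coding sequences of the pair are both 186 bases long in GENCODE M21 and are identical at 148 positions (79.6%), but their annotated transcripts share no exact run longer than 20 bases, against reads of 100 bases. The other members of the cluster, Mt3 and Mt4, had 0 reads in both libraries, and a count of 0 allows up to 3 reads in each.

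**Figure D1:**
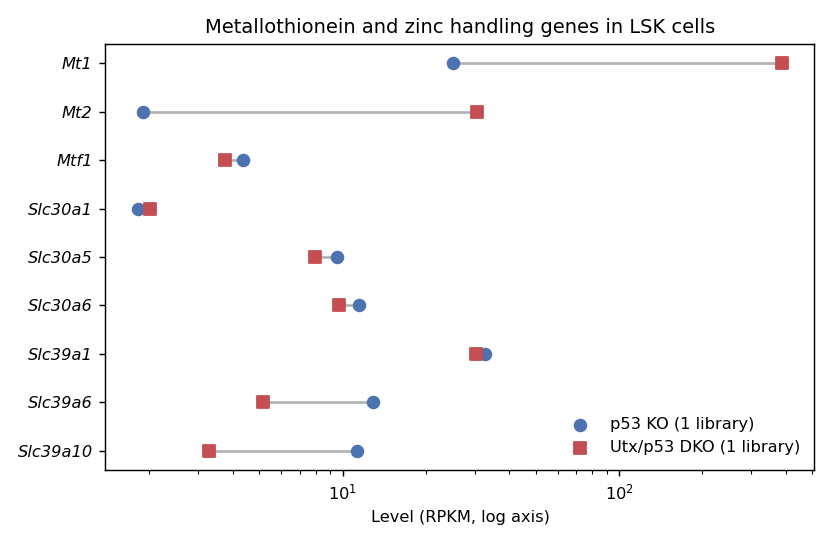
Level of each of the 9 genes in RPKM (log axis) in the p53 KO library (blue circle) and the Utx/p53 DKO library (red square), 1 library each, joined by a grey line. Mt1 and Mt2 lie far to the right in the DKO library, at 388.9 and 30.5 RPKM, Slc39a6 and Slc39a10 lie to the left, and the other 5 pairs of points nearly meet.

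The genes beside the metallothionein cluster were not higher to a similar degree. In the order of the RefSeq table, the measured neighbours before Mt4 were Nudt21, a cleavage factor subunit gene, at 13.7 against 7 RPKM (p53 KO first here and below), Ogfod1, an oxygenase gene, at 4.43 against 5.05, and Bbs2, a gene of the ciliary BBSome complex, at 4.01 against 1.79 RPKM. After Mt1 came Nup93, a nuclear pore gene, at 16.1 against 13.1 RPKM. Their log2(RPKM + 1) differences lay between -0.88 and 0.16, beside 3.90 for Mt1. The microRNA gene Mir138-2 had 1 read against 0, and the others of the 4 neighbours on each side, Gm39226, Gm39228 and Rpl10-ps5, are named only.

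Mtf1 was at 4.36 against 3.77 RPKM (569 and 573 reads). The ratio was 0.864 (exact 95% interval 0.768 to 0.972). Relative to the median of all measured genes, which was -0.24 on the log2(RPKM + 1) scale, Mtf1 stood at 0.07. Its difference was thus near that of a typical gene, while Mt1 stood 4.14 above that median. Other genes reported as MTF-1 targets were Gclc, for glutathione synthesis (9.36 against 8.79 RPKM), the selenoprotein gene Sepw1 (84.1 against 107), Ndrg1, a stress-response gene (20.9 against 24.4), and Csrp1, a LIM domain protein gene (149 against 119). Of the 5 genes in this list, Mtf1 included, 0 were 2-fold higher and 0 lower, also under every scaling tried. Among all measured genes 6.60% were higher and 13.5% lower, so counts of 0 among 5 genes are near those shares.

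Slc30a1 encodes the zinc exporter of the plasma membrane and is a known MTF-1 target like the metallothioneins. It was at 1.81 RPKM in the p53 KO library (162 reads) and at 2.02 in the DKO library (210 reads). The ratio of 1.11 had an exact 95% interval of 0.901 to 1.37. Slc30a1 was the only one of the 6 transporters with a value above 0 on the log2(RPKM + 1) scale (0.10). Relative to the median of all measured genes it stood at 0.34. Its sign turned when the libraries were scaled to equal totals (-0.14), where the median of all measured genes was -0.55.

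Slc30a5 and Slc30a6 encode the partners of a zinc transporter of the early secretory pathway, which supplies zinc to enzymes made there. Slc30a5 was at 9.57 against 7.96 RPKM (520 and 504 reads), and Slc30a6 at 11.5 against 9.70 RPKM (419 and 412 reads). Their ratios were 0.831 (exact 95% interval 0.734 to 0.941) and 0.843 (0.734 to 0.968). The level of Slc30a5 divided by that of Slc30a6 was 0.832 in p53 KO cells (exact 95% interval 0.730 to 0.949) and 0.820 in DKO cells (0.719 to 0.937). The partners thus kept their proportion within counting error.

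Of the importers, Slc39a1, which is widely expressed at the cell surface, was at 32.8 against 30.3 RPKM (1312 and 1414 reads). Its ratio was 0.924 (exact 95% interval 0.857 to 0.997). It stood above Mt1 in p53 KO cells, at 32.8 against 25.2 RPKM, and below it in DKO cells, at 30.3 against 388.9 RPKM.

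Slc39a6 and Slc39a10 encode importers of the same subfamily that can form a complex with each other. Slc39a6 was at 12.9 RPKM in the p53 KO library (854 reads) and at 5.16 in the DKO library (399 reads), a ratio of 0.401 (exact 95% interval 0.355 to 0.452). Slc39a10, which is used in haematopoietic stem cells and B cells, was at 11.2 RPKM (953 reads) and 3.29 RPKM (325 reads), a ratio of 0.292 (0.257 to 0.332). On the log2(RPKM + 1) scale the differences were -1.17 and -1.51, so both importers were lower in the DKO library. The level of Slc39a10 divided by that of Slc39a6 was 0.873 in the p53 KO library (exact 95% interval 0.795 to 0.959) and 0.637 in the DKO library (0.549 to 0.740), so the intervals did not overlap and Slc39a10 was lower by more.

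With 2-fold on the log2(RPKM + 1) scale as the limit, 2 of the 9 members were higher in the DKO library (Mt1 and Mt2), 2 were lower (Slc39a6 and Slc39a10) and 5 were within 2-fold. These stand beside the 6.60% and 13.5% of all measured genes. Since Mt1 and Mt2 were the reason for the choice, nothing is read from the first count. The 6 transporters had a median difference of -0.23, beside -0.24 for all measured genes.

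**Figure D2:**
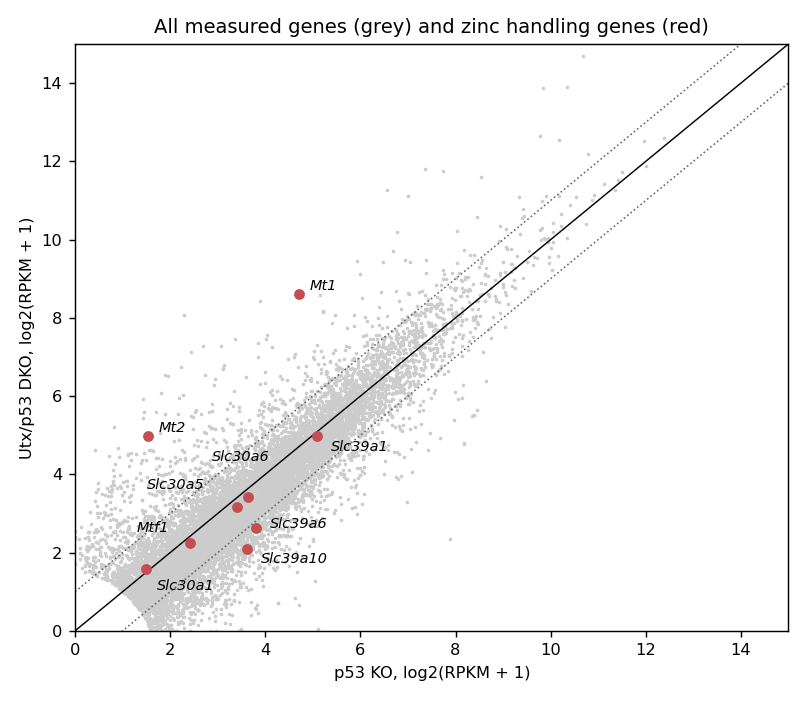
Each grey point is 1 of 11356 measured genes, at its log2(RPKM + 1) in the p53 KO library (x axis) and the Utx/p53 DKO library (y axis), with the line of equality and dotted lines at 2-fold; the 9 genes are in red. Mt1 and Mt2 lie above the upper dotted line, Slc39a6 and Slc39a10 below the lower one, and the other 5 within the band of most genes.

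How the libraries are scaled decides the sign of the small differences. With the normalization constants of gfold, the authors' program for comparing libraries, the median of all measured genes moved from -0.24 to 0.28. In the authors' deposited table the log2 fold change was 4.55 for Mt1 and 4.54 for Mt2, 0.390 for Mtf1, 0.753 for Slc30a1, 0.335 for Slc30a5, 0.356 for Slc30a6 and 0.488 for Slc39a1. For Slc39a6 and Slc39a10 it was -0.716 and -1.17 in the authors' deposited table. The GFOLD value of the authors' deposited table, a log2 change shrunken for low counts, was 4.33 for Mt1, 3.82 for Mt2, -0.515 for Slc39a6 and -0.957 for Slc39a10. The q-value in the authors' deposited table was 1 for every transcript, and with 1 library per genotype nothing is read from it.

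Over the settings tried, the log2(RPKM + 1) difference lay between 3.52 and 4.50 for Mt1 and between 2.37 and 4.03 for Mt2. It lay between -1.48 and -0.65 for Slc39a6 and between -1.79 and -0.97 for Slc39a10. These 4 genes kept their sign throughout. Slc39a6 was no longer 2-fold lower with the authors' constants (-0.65), after centring on the median of genes averaging 5 RPKM or more (-0.99) or with a pseudocount of 5 (-0.82). Slc39a10 was no longer so with a pseudocount of 5 (-0.97). The signs of Mtf1, Slc30a1, Slc30a5, Slc30a6 and Slc39a1 each changed in at least 1 setting.

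**Figure D3:**
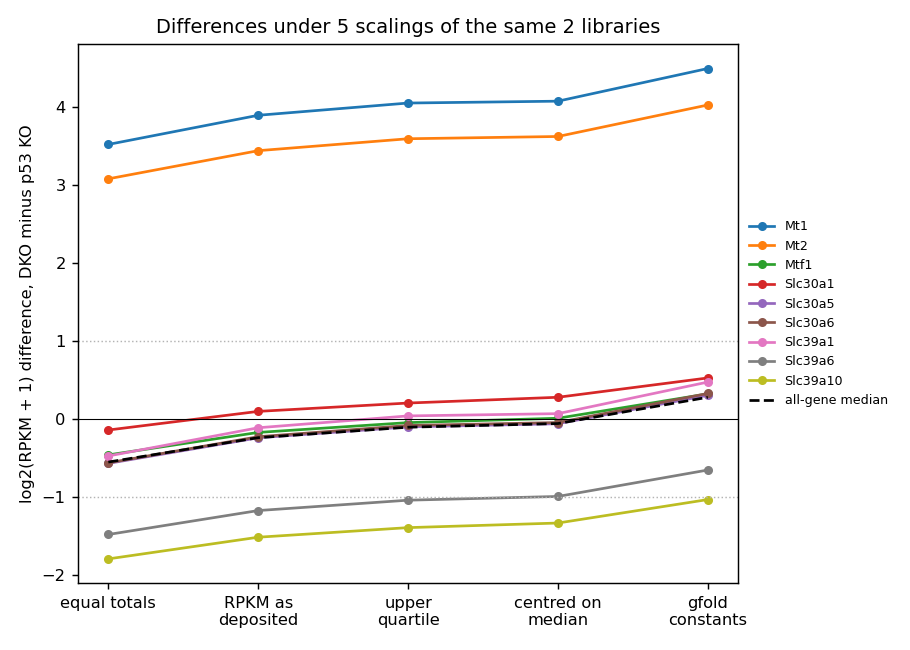
Difference in log2(RPKM + 1), DKO minus p53 KO (y axis), of the 9 genes (coloured lines) and the median of all measured genes (dashed) under 5 scalings of the same 2 libraries (x axis), with dotted lines at 2-fold. The metallothioneins stay above 3 and both lower importers below 0 in each of the 5, while the other 5 genes run along the all-gene median.

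The complete transporter families were taken by name and not by value. Of the 24 Slc30a and Slc39a genes listed, 16 were measured: 0 were higher, 3 were lower (Slc39a6, Slc39a10 and Slc30a4) and 13 were within 2-fold, beside 6.60% higher and 13.5% lower among all measured genes. At 16 genes these counts are near the shares of all genes. Their median difference was -0.35, or -0.12 relative to all measured genes. That relative median lay between -0.12 and -0.08 under the 5 scalings and both other pseudocounts, and was -0.18 without the filter on low values and -0.17 with a minimum mean of 5 RPKM. Of the 16, 6 stood above the all-gene median and 10 below it. With the authors' constants 0 were higher and 2 lower, where 16.5% of all measured genes were higher and 6.27% lower. Scaling to equal totals gave 0 and 4, where 4.39% of all measured genes were higher and 23.9% lower.

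Among the exporters outside the chosen members, Slc30a4, a transporter of intracellular vesicles, was at 2.84 against 0.477 RPKM (266 and 52 reads), 5.97-fold lower in the DKO library (exact 95% interval 4.42 to 8.19). Slc30a7, of the Golgi, was at 8.89 against 5.62 RPKM, and Slc30a9, of mitochondria, at 7.10 against 5.38 RPKM. Slc30a2, Slc30a3, Slc30a8 and Slc30a10 were below 1 RPKM in both libraries, with 7 reads or fewer each. Slc30a4 was thus the only exporter of the 6 measured that was 2-fold lower, on 52 reads in the DKO library.

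Among the other importers, the most abundant were Slc39a7, which releases zinc from the endoplasmic reticulum (36.6 against 28.3 RPKM), and Slc39a11 (27.3 against 24.6 RPKM). Slc39a1, Slc39a7 and Slc39a11 together made up 69.9% of the summed Slc39a RPKM in p53 KO and 79.4% in DKO cells, while the share of Slc39a6 and Slc39a10 went from 17.4% to 8.07%. The measured importers with higher values in the DKO library were Slc39a3, at 1.17 against 2.03 RPKM (69 and 140 reads), and Slc39a8, at 1.62 against 2.52 RPKM (91 and 165 reads). Their ratios were 1.74 (exact 95% interval 1.29 to 2.36) and 1.55 (1.20 to 2.03), and both were within 2-fold on the log2(RPKM + 1) scale.

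Slc39a4, the importer of the intestinal lining, was at 1.95 against 0.564 RPKM on 74 and 25 reads. The plain RPKM ratio was 3.45-fold lower (exact 95% interval 2.17 to 5.67), but on the log2(RPKM + 1) scale the difference was -0.91 and it was not called. Slc39a9 was at 7.30 against 5.43 RPKM and Slc39a13 at 3.60 against 2.01 RPKM. Below the filter on low values, Slc39a2 had 23 reads in p53 KO and 0 in DKO cells, which with 3 reads in place of the 0 is at least 8.94-fold lower, and Slc39a14 was at 1.02 against 0.431 RPKM. Slc39a5 and Slc39a12 had 6 reads or fewer in each library. The summed Slc39a level was 3.29 times the summed Slc30a level in p53 KO and 3.36 times in DKO cells.

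**Figure D4:**
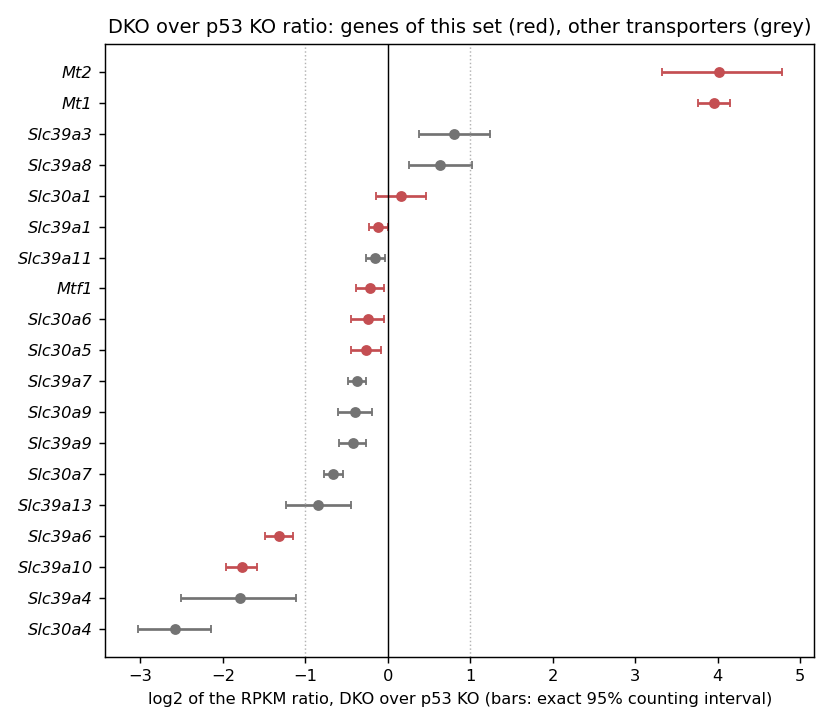
log2 of the RPKM ratio, DKO over p53 KO (x axis; no pseudocount), of Mt1, Mt2, Mtf1 and the 16 measured Slc30a and Slc39a genes, with exact 95% counting intervals as bars, the 9 chosen genes in red and other transporters in grey. Slc30a4, Slc39a4, Slc39a10 and Slc39a6 lie lowest, and Mt1 and Mt2, which were chosen for their higher values in this comparison, lie at the top.

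Copper, the other main metal bound by metallothioneins, was examined through 15 handling genes, of which 13 were measured. On the log2(RPKM + 1) scale 3 were at least 2-fold higher, 1 was lower and 9 were within 2-fold. Among all measured genes 6.60% were higher and 13.5% lower, and the list median was 0.25 relative to them. Higher were Cox17, a copper chaperone for cytochrome oxidase (14.4 against 48.5 RPKM), Slc31a2, a copper transporter of endosomes and lysosomes (10.9 against 33.8), and Atox1, the cytosolic copper chaperone for the copper pumps (43.8 against 112). The copper pump gene Atp7a was lower, at 3.46 against 0.943 RPKM. Slc31a1, the copper importer of the plasma membrane, was at 12.4 against 13.7 RPKM, and Sod1, the copper and zinc superoxide dismutase, at 573 against 578 RPKM. With the authors' constants 4 of the 13 were higher and 0 lower (all measured genes 16.5% and 6.27%), and with equal totals 2 and 2 (4.39% and 23.9%).

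Genes known to respond to other inducers of metallothioneins were described by lists chosen by name, with earlier results of these data known. Their counts stand beside 6.60% higher and 13.5% lower among all measured genes. Of 10 glucocorticoid-responsive genes, 2 were higher, Klf9 (4.66 against 15 RPKM) and Cebpd (3.13 against 10), and 2 were lower, Tsc22d3 (114 against 54.5) and Ddit4 (3.82 against 1.13). Fkbp5, a glucocorticoid receptor cochaperone gene, was at 9.45 against 9.28 RPKM. The median of this list was -0.08 relative to all measured genes. With the authors' constants 3 were higher and 0 lower (all measured genes 16.5% and 6.27%), and with equal totals 2 and 3 (4.39% and 23.9%).

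Of 9 measured targets of the oxidative stress factor NRF2, 2 were higher and 0 lower, beside 6.60% and 13.5% of all measured genes. The list median was 0.16 relative to all measured genes. Glutathione reductase (Gsr) was at 15.3 against 188 RPKM and G6pdx, an enzyme that supplies NADPH, at 30.2 against 69.2. Haem oxygenase (Hmox1) was at 7.20 against 10.7, Nqo1 at 2.34 against 1.62 and Txnrd1 at 15.5 against 8.69 RPKM. With the authors' constants 4 of the 9 were higher and 0 lower (all measured genes 16.5% and 6.27%), and with equal totals 1 and 1 (4.39% and 23.9%).

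Of 9 measured genes of the STAT3 response, which carries signals of IL-6, 1 was higher and 1 lower. Among all measured genes 6.60% were higher and 13.5% lower, and the list median was -0.52 relative to them. Fgl2 was at 7.13 against 18 RPKM and the IL-4 receptor gene Il4ra at 11.2 against 3.62. Socs3, the feedback inhibitor of IL-6 signalling, was at 1.81 against 0.479 RPKM. With the authors' constants 1 was higher and 0 lower (all measured genes 16.5% and 6.27%), and with equal totals 0 and 5 (4.39% and 23.9%). A pseudocount of 0.1 gave 1 and 3 (7.97% and 18.7%).

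Most measured markers of granulocytes, monocytes and macrophages were also higher in the DKO library. Here and in the marker lists below, counts stand beside 6.60% higher and 13.5% lower among all measured genes. Of 22 granulocyte and monocyte markers, all measured, 17 were at least 2-fold higher in the DKO library and 1 was lower, and their summed level was 6474 against 72017 RPKM, with 0 of the 22 at 0 in either library. The median of the list was 2.08 on the log2(RPKM + 1) scale, and its sum differed by 11.1-fold. The lower one was Ltf, a secondary granule gene, at 32.9 against 5.42 RPKM. Those with the largest differences were Ly6c2 (919.5 against 15136 RPKM), Elane (1649 against 26714), Lyz2 (1302 against 15319) and Lcn2 (59.5 against 704). The zinc-binding S100a8 and S100a9, which form calprotectin of neutrophils, were at 259.5 against 1190 and 193 against 454 RPKM. Of 8 macrophage markers, 6 were measured and 5 were higher, with a summed level of 21.8 against 101 RPKM, 0 at 0 in the p53 KO and 1, Marco, at 0 in the DKO library.

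The remaining marker lists went both ways. Of 12 stem and multipotent progenitor markers 9 were lower and 0 higher (summed level 961 against 401 RPKM), with Kit of the sort gate at 64.2 against 16 and Ly6a, which encodes Sca-1, at 255 against 281 RPKM. Of 11 measured lymphoid and B cell markers 10 were lower, with a list median of -2.55 on the log2(RPKM + 1) scale. The 1 that was higher, the surrogate light chain gene Igll1, was at 166 against 563 RPKM and made up most of the summed DKO level of the list (760 against 634 RPKM). Of 12 measured erythroid markers 11 were lower and 0 higher, and the summed level was 1766 against 255 RPKM. Of 5 measured basophil and mast cell markers 4 were lower, with a summed level of 115 against 41.5 RPKM. In T and NK cell markers 5 of 8 were higher and 1 lower, with a summed level of 67.9 against 96.1 RPKM. Of 9 endothelial and stromal markers only Pecam1, which blood cells also use, was measured, at 16.1 against 49.4 RPKM. With summed transcripts 2 of that list were measured, and 2 were higher and 0 lower (all measured genes 6.7% and 14.6%). What part any of these cell types had in the metallothionein, Slc39a6 and Slc39a10 values was not tested.

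Of the targeted genes, Kdm6a was at 5.32 against 1.26 RPKM, and Trp53 at 19.4 against 12.9 RPKM. Which exons were deleted was not stated, and whole-transcript levels like these do not check a deletion, so the loss of p53 and of Utx is taken from the labels.

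The genes nearest to Mt1 in the plane of both levels, by Euclidean distance in log2(RPKM + 1) over the 2 libraries, were F13a1, for a coagulation factor subunit (34.7 against 381 RPKM, distance 0.45), the methionine sulfoxide reductase gene Sepx1 (36.1 against 288, 0.66), the adaptor subunit gene Ap3s1 (36.3 against 281, 0.69), Anxa3 (43 against 269.5, 0.92) and the chemokine gene Ccl5 (41.2 against 232, 1.02). Nearest to Mt2 were the adhesion molecule gene Vcam1 (2.45 against 32.2 RPKM, distance 0.26), the sodium channel subunit gene Scnn1a (2.01 against 23.6, 0.36), Ecm1 (2.13 against 23.1, 0.40), Schip1 (1.73 against 22.3, 0.44) and the glutathione transferase gene Gstm2 (1.68 against 42.1, 0.47). With 2 libraries such nearness describes only these levels.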

How the data were processed

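RNA-seq of 2 LSK libraries, 1 per genotype as the labels give it, was analysed from 1 table of 28344 transcripts. Per the labels' protocols, cDNA was made with a SMART kit and amplified. Per the submitters' processing notes, TopHat2 2.1.0, bcl2fastq 1.8.4 and the build mm9 were used, and the file headers name gfold 1.1.4. The authors deposited RPKM values, a log2 fold change and a log2-scale GFOLD value, and a q-value (E-FDR) that was 1 throughout. Strand handling was not stated in the sources used here. Per the file headers the p53 KO library came first, with 17088105 reads and a constant of 1.30144, and the DKO library second, with 19926294 reads and a constant of 1. The RPKM values use the read totals alone, so both scales differ by 0.602 in log2.

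Each symbol was represented by its transcript of highest mean RPKM. Differences are of log2(RPKM + 1), DKO minus p53 KO, which understates changes of low genes. Measured genes averaged 1 RPKM or more, and calls need 2-fold. Whole reads were recovered as the whole numbers that fit both RPKM values and the log2 fold change at a common transcript length (1 solution for 97.3% of 24644 transcripts with reads). On 600 simulated transcripts 555 gave 1 solution, all correct. The reads gave exact (Clopper-Pearson) 95% intervals and a floor of 3 reads for a count of 0. PCR copies without molecular identifiers are not independent, so these cover counting error only. No test across genes was made. Members and gene lists were chosen with earlier results of these data known. The text names the 9 members, genes of the metal and inducer lists, up to 4 markers per cell type list by largest difference, Kdm6a, Trp53, the 5 genes nearest to Mt1 and to Mt2, and 4 neighbours on each side of the cluster. Kit, Ly6a, Igll1, Ltf, Pecam1 and Marco were named after their values were seen. Python 3.11.15, numpy 2.4.6, pandas 2.3.3, scipy 1.17.1 and matplotlib 3.10.9 were used. Alternatives were other pseudocounts, filters, scalings and fold rules and summed transcripts.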

Additional observations from a re-analysis of the deposited data

How the results depend on the processing

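The count of 2 members higher held under each of the 11 alternatives. Those members are Mt1 and Mt2, chosen for their higher values in this comparison, so nothing is read from that count. The count of 2 members lower was 1 after centring on the median of genes averaging 5 RPKM or more and 1 with the authors' gfold constants, and 0 with a pseudocount of 5 or a 3-fold rule. The median of the 6 member transporters, -0.23 in the report, was -0.25 with a pseudocount of 0.1, -0.17 with 5, -0.24 with a minimum mean of 5 RPKM, -0.051 after centring, -0.09 with upper-quartile scaling, -0.56 with equal totals and 0.32 with the gfold constants. The median of all measured Slc30a and Slc39a genes, -0.35 in the report, was -0.38 with a pseudocount of 0.1, -0.23 with 5, -0.29 without the filter, -0.17 after centring, -0.21 with upper-quartile scaling, -0.67 with equal totals, 0.20 with the gfold constants and -0.37 with summed transcripts. The scalings moved the median of all genes too, from -0.24 to -0.06 (centring), -0.10 (upper quartile), -0.55 (equal totals) and 0.28 (gfold constants). Of all genes called, 32.9% were higher, against 48.2%, 43.1%, 15.5% and 72.5% under these scalings. The counts over all genes also moved by over 1.5 times. From 750 higher and 1528 lower they went to 426 and 476 with a pseudocount of 5, 498 and 2709 with equal totals, 1873 and 712 with the gfold constants, 369 and 493 by the 3-fold rule and 1481 and 3363 by the 1.5-fold rule. Mtf1 and Slc30a1 gave no value with that minimum mean. No paired analysis was possible because each genotype has 1 library. The 18 reads of Mt2 in the p53 KO library limit its precision.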
